A study of Mus musculus with 9 samples.

Results

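The genes of the mitochondrial ribosomal proteins were taken as every gene symbol that starts with Mrpl or Mrps followed by a digit. The rule found 76 genes among the 7676 genes listed once for the inbred wild type lens, and none among the 190 genes listed for the conditional knockout and its mixed-background control. A member is by this rule a gene that is listed. In the GENCODE M21 annotation of the mouse genome (GRCm38), 78 protein-coding genes have such symbols. The remaining 2, Mrpl57 and Mrpl58, were present in the inbred list under the older symbols Mrp63 and Ict1 and are described with the related genes. By comparison, 7213 of 21924 protein-coding symbols (32.9%) were in the inbred list, whose lowest mean level was 2 RPKM (reads per kilobase of exon and per M mapped reads, M for mega).

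The study sequenced RNA of mouse lenses at 15.5 days post conception to examine loss of Sip1, the zinc finger transcription factor encoded by Zeb2. It had 9 libraries in 3 groups of 3. The conditional knockout (cKO) was Sip1 flox/flox with the MLR10Cre transgene, which drives Cre recombinase in lens cells, on a background labelled mix. The mixed wild type carried the same floxed alleles without Cre on the background labelled mix, and the inbred wild type was of strain C57Bl/6<har> with no genotype given. Each library held 30 pooled lenses, and the labels call the 3 libraries of a genotype independent biological replicates. Inbred depth was 16.7, 16.3 and 14.1 M reads in replicates 1, 2 and 3. Every lens fibre marker (7 of 7) and lens epithelium marker (4 of 4) examined was listed in the inbred libraries, as were 4 of 6 red cell, 3 of 4 endothelial and 1 of 4 muscle markers, against 0 of 3 neuronal and 0 of 3 leukocyte markers. The red cell markers reached 392 RPKM (Hba-a2, an alpha globin), and the part of red cell RNA in the levels given here was not tested. Zeb2 was at 5.16, 5.96 and 6.31 RPKM in the inbred libraries and was not among the 190 genes, so the knockout label was not checked against it here.

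Mitochondria keep a ribosome of their own, related to that of bacteria, which translates the few proteins encoded by mitochondrial DNA. These proteins are core subunits of the oxidative phosphorylation complexes. All proteins of the mitochondrial ribosome are encoded in the nucleus, made in the cytosol and imported, and they join a large subunit, which forms peptide bonds, or a small subunit, which decodes the messenger RNA. Some have a counterpart in the bacterial ribosome, while others were added in the evolution of mitochondria. In the lens, fibre cells lose their mitochondria and other organelles as they mature at the lens centre, and the epithelium and outer fibres keep them.

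No mitochondrial ribosomal protein gene could be compared between cKO, mixed wild type and inbred wild type lenses. The list for cKO and mixed wild type held 0 of the 76 genes. It held 12 of 76 genes for cytosolic ribosomal proteins (15.8%), 2 of 83 nuclear genes of oxidative phosphorylation (2.41%) and 127 of all 7676 inbred genes (1.65%). In each of the 190 genes, the means of the authors' normalized expression values in cKO and mixed wild type differed by at least 2.505-fold. Absence from that list therefore gives no level and no test for the mitochondrial ribosomal protein genes in either group. A difference below that fold, or one in a gene left out by another rule, would not be seen. The results below describe the 3 inbred wild type libraries.

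The 76 genes were expressed at moderate levels that lay above those of most listed genes. Their median was 12.2, 11.7 and 11.7 RPKM in replicates 1, 2 and 3 (mean 11.9 ± 0.289, SD, n = 3), against a median of 7.65 RPKM for the means of all listed genes, and 58 of the 76 lay above that value. Their median rank was at percentile 65.1 of the list. In whole lenses, fewer cells of a type and less RNA per cell cannot be told apart. The middle 50% lay between 7.98 and 17.5 RPKM, a 2.19-fold range, while the same range over all listed genes was 4.12-fold. Related lists lay on both sides of the members, from 1.57-fold (mitochondrial DNA and transcription) to 3.87-fold (cytosolic ribosomal proteins). On the length of the principal annotated transcript, taken up below, the range was 2.92-fold for members and 4.32-fold for listed genes. From end to end the members spanned 37.9-fold, with 12 under 5 RPKM, 54 between 5 and 30 RPKM and 10 at 30 RPKM or more. Nuclear genes of oxidative phosphorylation had a median of 50.7 RPKM and cytosolic ribosomal protein genes one of 239 RPKM. Summed reads of the 76 genes were 32216, 29307 and 24988, which is 0.223%, 0.207% and 0.203% of the reads of listed genes (mean 0.211 ± 0.0103%). Cytosolic ribosomal proteins took 3.45% and oxidative phosphorylation 0.854%. Crystallins, the main proteins of lens fibres, took 38.4%, 37.96% and 35.3% of the listed reads, so each of these shares also depends on them.

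**Figure D1:**
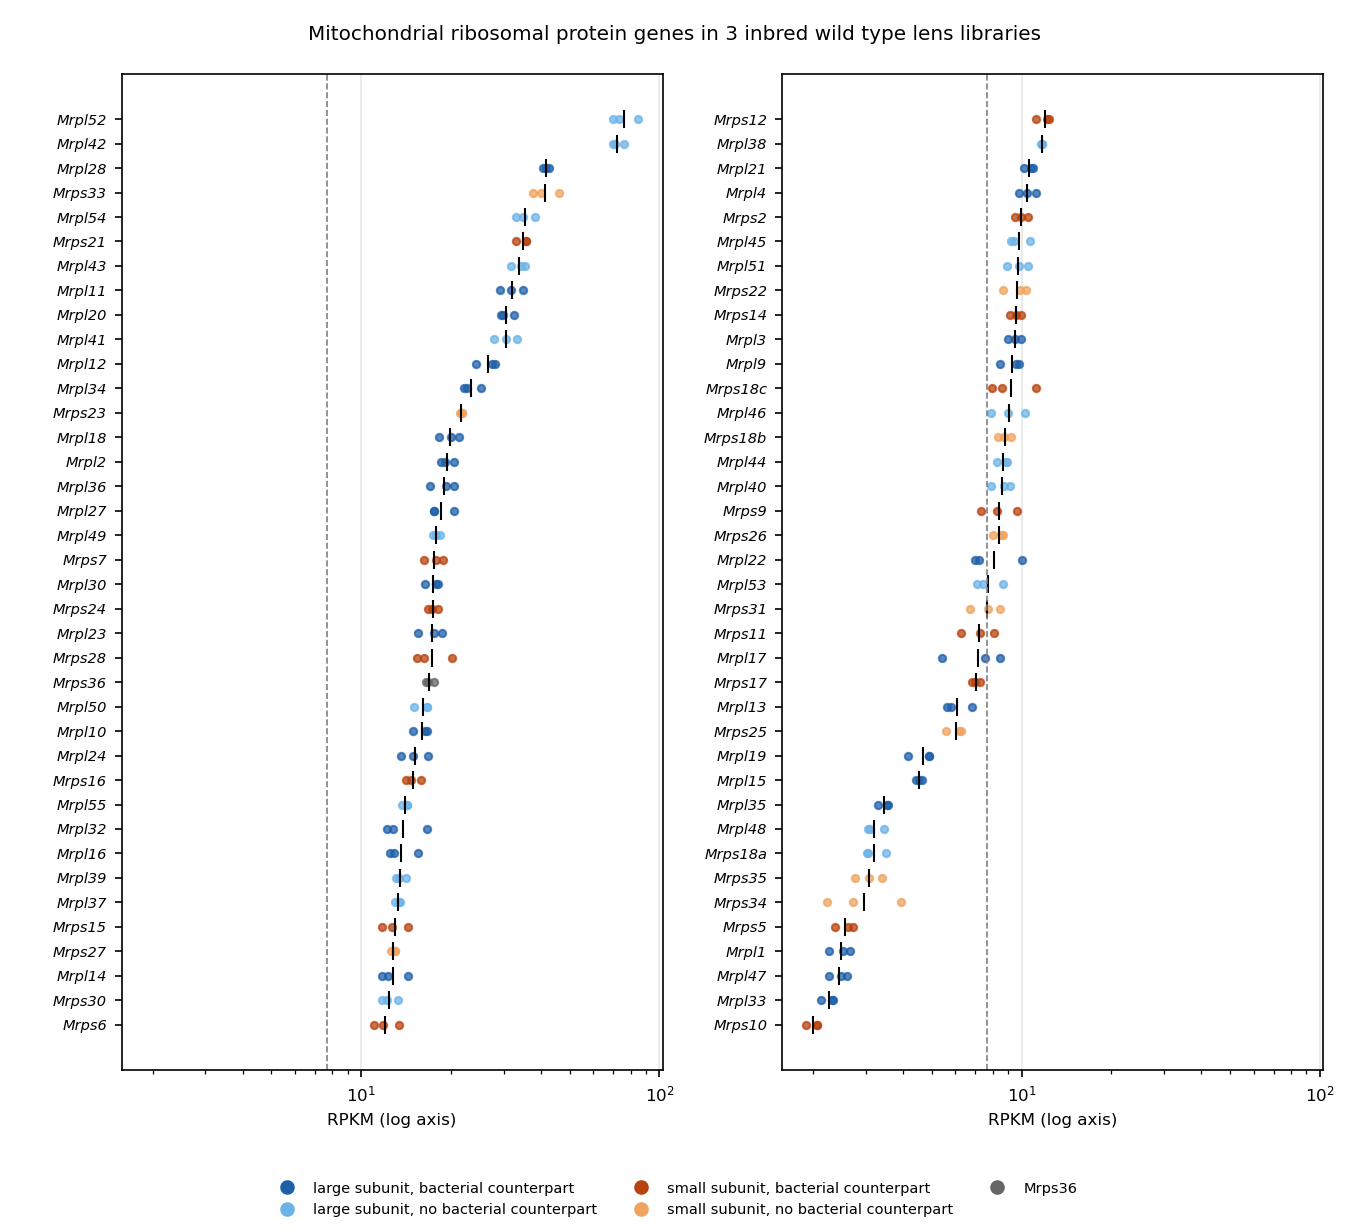
RPKM of each of the 76 mitochondrial ribosomal protein genes in the 3 inbred wild type libraries (points, coloured by role) with the mean (black bar), on a log axis and ordered by mean from upper left to lower right. The dashed line is the median of all listed genes, 7.65 RPKM, and 58 of the 76 means lie to its right, with Mrpl52 and Mrpl42 apart from the rest at the upper end.

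Mrpl52 and Mrpl42, both large subunit proteins with no bacterial counterpart, headed the list. Mrpl52 was at 84.8, 69.8 and 73.3 RPKM in replicates 1, 2 and 3, and Mrpl42 at 75.8, 69.6 and 70.7 RPKM. The libraries of these genes overlapped each other, and the lowest Mrpl42 library was above the highest library of Mrpl28, next in order, at 42.6 RPKM. Mrpl28, a large subunit protein with a bacterial counterpart, averaged 41.6 ± 1.02 RPKM (SD, n = 3). Mrps33, of the small subunit, averaged 41.3 ± 4.33 RPKM. Behind them came Mrpl54 at 35.3 ± 2.60 RPKM, Mrps21 (the counterpart of a bacterial small subunit protein) at 34.7 ± 1.58 RPKM, Mrpl43 at 33.8 ± 1.86 RPKM and Mrpl11, which lies at the base of the stalk where elongation factors bind, at 31.9 ± 2.93 RPKM. From Mrpl28 to Mrpl11 each gene overlapped its neighbour in the order.

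At the lower end, Mrps10, a small subunit protein of bacterial descent, was at 2.06, 2.06 and 1.90 RPKM. All 3 values were below every library of the next gene, Mrpl33, at 2.34, 2.31 and 2.13 RPKM. The other low genes were Mrpl47 at 2.45 ± 0.177 RPKM, Mrpl1 (of the mobile arm beside the exit site of transfer RNA) at 2.48 ± 0.202 RPKM and Mrps5 at 2.57 ± 0.178 RPKM. Mrps34 averaged 2.97 ± 0.888 RPKM, Mrps35 3.08 ± 0.314 RPKM and Mrps18a, a large subunit protein in spite of its name, 3.20 ± 0.270 RPKM. These last 3 overlapped each other. Over the whole order, 8 of 75 neighbouring pairs had libraries that did not overlap, so most single steps in it are smaller than the spread between libraries. The order as a whole was alike in the 3 libraries, with Spearman's rho of 0.981 (replicates 1 and 2), 0.983 (1 and 3) and 0.988 (2 and 3) over the 76 genes, a description of genes that differ in length and share each library.

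The promoters of the members are shown because nuclear genes for mitochondrial proteins are known targets of the transcription factors NRF1, GABP (an ETS factor) and YY1. RefSeq promoters (GRCm38.p6, 250 bases before to 50 after the start) were matched for 67 of the 76 genes. A 7-letter core of each factor's motif was searched on both strands. The words were CATGCGC or GCGCATG for NRF1, CCGGAAG or CTTCCGG for ETS factors and AAGATGG or CCATCTT for YY1. The 4 promoters below belong to the highest member with an ETS and a YY1 word before the start (Mrpl52), the highest with more than 1 ETS word there (Mrpl43), the highest with an NRF1 word there (Mrpl10) and the member with most NRF1 words (Mrpl32). Each is printed 5′ to 3′ on the gene's own strand and ends at the last base before the start, with the words that lie wholly within it in capitals. A second NRF1 word of Mrpl10 begins 4 bases before the start and runs past it, and is not marked. The longest run of capitals in Mrpl32 holds NRF1 words of both strands, which overlap. The regions are chr14:54426759-54426908 (plus strand), chr19:45006443-45006592 (minus strand), chr11:97041432-97041581 (plus strand) and chr13:14613038-14613287 (minus strand).
Mrpl52: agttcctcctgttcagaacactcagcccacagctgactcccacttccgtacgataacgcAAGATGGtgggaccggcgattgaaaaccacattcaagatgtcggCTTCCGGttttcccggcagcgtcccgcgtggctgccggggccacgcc
Mrpl43: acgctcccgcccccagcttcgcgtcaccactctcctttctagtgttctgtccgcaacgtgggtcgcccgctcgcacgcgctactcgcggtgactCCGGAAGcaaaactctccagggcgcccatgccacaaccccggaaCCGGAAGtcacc
Mrpl10: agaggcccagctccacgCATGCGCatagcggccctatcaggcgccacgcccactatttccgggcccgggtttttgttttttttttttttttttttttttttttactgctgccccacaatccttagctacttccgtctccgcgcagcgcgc
Mrpl32: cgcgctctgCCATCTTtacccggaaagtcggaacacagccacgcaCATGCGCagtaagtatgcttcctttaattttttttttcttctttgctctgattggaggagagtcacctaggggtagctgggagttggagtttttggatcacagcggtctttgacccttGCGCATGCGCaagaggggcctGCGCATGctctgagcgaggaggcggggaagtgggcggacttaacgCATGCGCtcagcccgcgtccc

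The ETS word was the most frequent, in 23 of 67 promoters of members (34.3%), against 20.99% of 5854 promoters of listed genes and 9.12% of all 27025 promoters of the table. The YY1 word was in 13 (19.4%), against 8.58% of listed genes and 6.48% of all. The NRF1 word was in 8 (11.9%), against 8.66% of listed genes and 4.04% of all. At least 1 of the words was in 35 of 67 (52.2%), against 33.9% of listed genes and 17.9% of all. Promoters of oxidative phosphorylation genes held the words in 16 (ETS), 8 (YY1) and 13 (NRF1) of 67, and those of cytosolic ribosomal proteins in 21, 8 and 7 of 55. The median number of CpG in a promoter was 21 for members, 22 for listed genes and 7 for all, so listed genes are the nearer comparison in base composition. Members with the ETS word had a median of 10.6 RPKM and those without it 13.1 RPKM. With and without the YY1 word the medians were 13.9 and 11.3 RPKM, and with and without the NRF1 word 9.03 and 12.8 RPKM. These are values of the letters in the window and do not show binding. Of the genes for the factors themselves, Yy1 was at 13.8 ± 0.863 RPKM, Gabpa at 7.29 ± 0.450 RPKM, Gabpb1, for the partner subunit of GABP, at 2.46 ± 0.0375 RPKM and Nrf1 at 2.03 ± 0.150 RPKM.

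By role, the large subunit genes had the higher medians in RPKM, although in the authors' normalized values per base the large subunit genes with a bacterial counterpart (11.2) were below the small subunit genes with one (11.8). The 29 large subunit genes with a bacterial counterpart had a median of 13.4 ± 1.79 RPKM (mean and SD of the medians of 3 libraries), from Mrpl28 to Mrpl33. The 20 large subunit genes with no such counterpart had 12.8 ± 0.479 RPKM, from Mrpl52 to Mrps18a. The groups follow the naming of the proteins, and descent was not examined. Mrps18a and Mrps18b were placed with genes lacking a counterpart, although Mrps18c, which shares their symbol stem, was placed with those having one. The 16 small subunit genes with a bacterial counterpart had 10.9 ± 0.675 RPKM, from Mrps21 to Mrps10. The 10 small subunit genes with none had 8.59 ± 0.368 RPKM, from Mrps33 to Mrps34. Of the 2 large subunit groups, the one with a bacterial counterpart had the higher median in replicate 1 only (15.5 against 12.8 RPKM). It was lower in replicate 2 (12.5 against 13.3 RPKM) and replicate 3 (12.3 against 12.4 RPKM). The 10 small subunit genes with no bacterial counterpart had the lowest median in every library. Mrps36, a subunit of the 2-oxoglutarate dehydrogenase complex, was kept apart from these groups, though its symbol places it among the 76 genes. It was at 16.9 ± 0.547 RPKM. Summed over the listed genes, the small subunit stood at 0.384, 0.390 and 0.380 of the large subunit in replicates 1, 2 and 3 (0.385 ± 0.00478). Per gene the ratio was 0.725, and 0.832 when levels were set on the length of the principal annotated transcript.

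**Figure D2:**
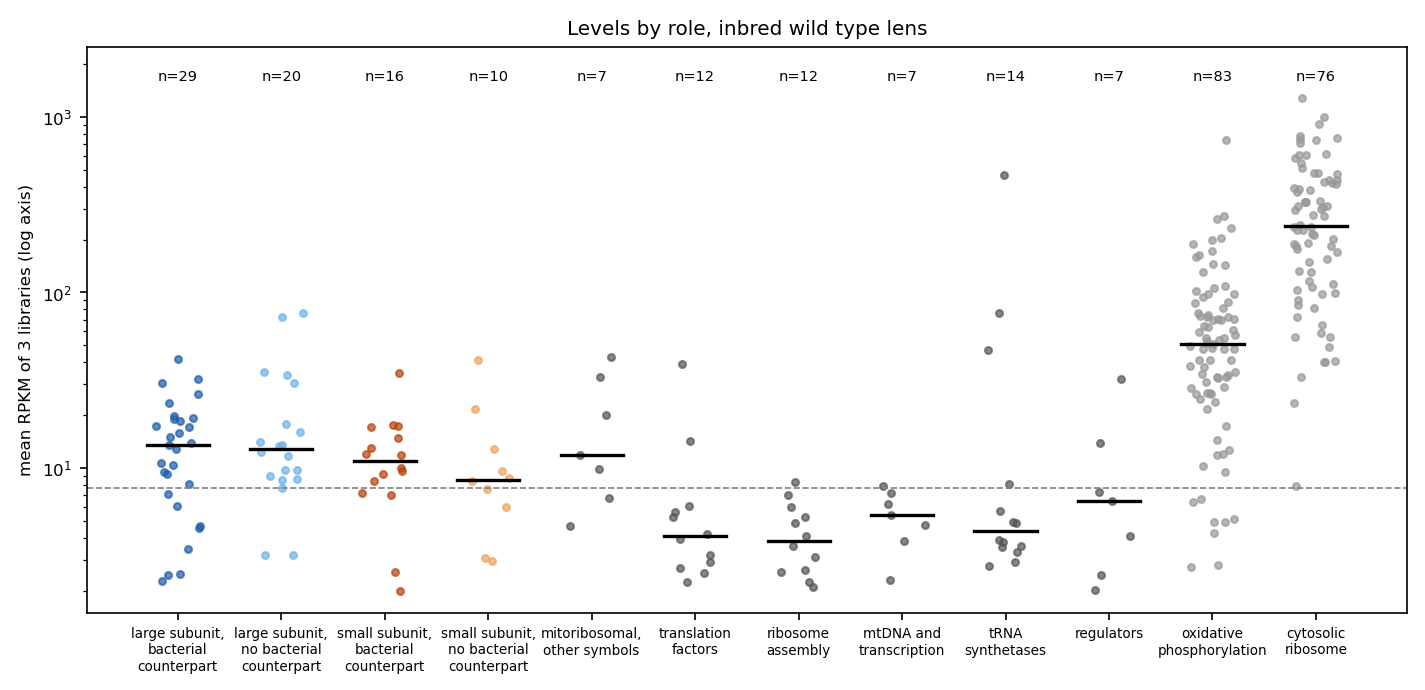
Mean RPKM over the 3 inbred wild type libraries (log axis) of each mitochondrial ribosomal protein gene in 4 role groups, at left, and of the genes of 8 related lists, at right. Each point is a gene, the black bar the median of the group and the dashed line the median of all listed genes. The 4 role groups overlap, and their medians lie between the medians of the genes for mitochondrial translation factors and assembly, which are lower, and those of oxidative phosphorylation and the cytosolic ribosome, which are higher.

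Genes known for particular functions or for human disease were spread over the list. Mrpl12, a stalk protein that also binds mitochondrial RNA polymerase, was at 26.6 ± 1.99 RPKM. Mrps16, in which human mutations cause respiratory chain deficiency, was at 14.9 ± 0.902 RPKM, and Mrps12, of the decoding centre, at 11.9 ± 0.631 RPKM. Mrps22, Mrpl3 and Mrpl44, each mutated in human mitochondrial disease, were at 9.62 ± 0.885, 9.48 ± 0.474 and 8.68 ± 0.383 RPKM. Mrps22 overlapped both of the others, while the highest Mrpl44 library (8.96 RPKM) was just below the lowest Mrpl3 library (8.98 RPKM). Of the 8 genes of this kind, Mrpl11 was among the highest 8 members and Mrps34, also mutated in human disease, among the lowest 8.

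Genes whose proteins sit together in the ribosome differed in level. At the stalk, where the GTP-driven factors bind, Mrpl11 (31.9 ± 2.93 RPKM) and Mrpl12 (26.6 ± 1.99 RPKM) were above Mrpl10, the protein that anchors Mrpl12, at 16.6, 16.4 and 14.9 RPKM. All 3 libraries of Mrpl12, at 27.4, 24.3 and 28.02 RPKM, lay above those of Mrpl10. Around the exit of the peptide tunnel, Mrpl23 was at 18.6, 17.6 and 15.5 RPKM and Mrpl24 at 16.8, 14.96 and 13.6 RPKM, and their libraries overlapped. Mrpl22, Mrpl17 and Mrpl47, also at the exit, averaged 8.07, 7.13 and 2.45 RPKM, and no library of these reached the lowest of Mrpl24. Mrpl45, which holds the ribosome at the inner membrane, was at 10.7, 9.24 and 9.43 RPKM. On the small subunit, Mrps12 and Mrps5, both near the decoding centre, averaged 11.9 and 2.57 RPKM. In the head of the small subunit, Mrps7 was at 18.8, 17.8 and 16.2 RPKM and Mrps9, at 9.62, 8.26 and 7.34 RPKM, was lower in every library. Mrps14 was at 9.58, 9.98 and 9.14 RPKM, and Mrps10 was lowest of all members. Per kilobase of the principal annotated transcript, a length taken up below, Mrpl11 (8.61) was below Mrpl10 (15.9), and Mrps10 (15.9) was above Mrps9 (13.997). The value of Mrpl11 can be too low, because its deposited exon length (821 bases) was shorter than that transcript (3045 bases). Those of Mrps10, Mrps9, Mrpl23 and Mrpl24 can be too high, because their deposited exon lengths were longer than the principal transcript. On the principal transcript Mrpl23, at 47.8, 45.1 and 39.9, lay above every library of Mrpl24, at 28.2, 25.2 and 22.9. The authors' normalized values, not set per base, went the other way. They were 36.4, 31 and 33.5 for Mrpl23 and 725, 629 and 544 for Mrpl24. Mrpl23 and Mrpl17 had low normalized values for their reads, as described below, so their places among these genes are uncertain. Mrpl24 and Mrpl22 shared 40.3% and 43.2% of their 31-base words with other genes, and the part of other reads in their levels was not tested.

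Mitochondrial ribosomal proteins under other symbols had a median of 11.8 RPKM, with 7 of 7 listed. Per kilobase of the principal transcript, matched for 5 of them, the median was 30.7, against 15.5 for the 76 members. Mrp63 and Ict1 were not matched, so 30.7 and 11.8 RPKM are medians of different genes. In RPKM the middle gene of the 5 matched was Aurkaip1, at 20.1 ± 0.784 RPKM. Chchd1, of the small subunit, was at 43.01 ± 1.32 RPKM, Ptcd3, also of the small subunit, at 32.9 ± 1.17 RPKM and Dap3, the GTP-binding protein of the small subunit, at 4.65 ± 0.0872 RPKM. Mrp63 (Mrpl57), of the large subunit, was at 12.9, 10.97 and 11.5 RPKM, and Ict1 (Mrpl58), a large subunit protein that can release stalled chains, at 11.3, 9.61 and 8.77 RPKM. Other genes of the pathway had lower medians. Of translation factors 12 of 15 were listed, with a median of 4.08 RPKM. Tufm, the elongation factor that brings transfer RNA to the ribosome, led them at 39.2 ± 2.19 RPKM, ahead of Oxa1l, the inner membrane insertase, at 14.2 ± 0.542 RPKM. Mtfmt, which formylates the initiator transfer RNA, was lowest at 2.24 ± 0.0562 RPKM. Of ribosome assembly genes 12 of 18 were listed, with a median of 3.84 RPKM, from Ngrn at 8.33 ± 0.373 RPKM and the RNA helicase gene Dhx30 at 7.05 ± 0.752 RPKM to Mettl17 at 2.11 ± 0.239 RPKM.

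Genes of mitochondrial DNA and its transcription were listed for 7 of 10, with a median of 5.40 RPKM. The DNA-binding protein gene Ssbp1 was at 7.90 ± 0.907 RPKM, the poly(A) polymerase gene Mtpap at 7.19 ± 0.430 RPKM and the DNA polymerase gene Polg at 2.31 ± 0.262 RPKM. Of 19 genes for transfer RNA synthetases that act in mitochondria 14 were listed, with a median of 4.37 RPKM. Lars2 stood apart at 468 ± 73.8 RPKM. Sequence shared with other genes was examined for members only, so the part of other reads in this value was not tested. Gars, whose product also serves the cytosol, was at 75.95 ± 1.24 RPKM, and Ears2 was lowest at 2.78 ± 0.212 RPKM. Of 10 regulators 7 were listed, with a median of 6.47 RPKM, led by Mycn at 32.2 ± 1.22 RPKM.

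The level of a member moved with the exon length by which its reads were divided. Over the 76 genes, exon length and RPKM had Spearman's rho of −0.69, against −0.30 over all 7676 listed genes. Exon length and read number had a rho of 0.22. Both are descriptions over genes, and RPKM holds the length in its denominator. Exon lengths ran from 412 bases (Mrpl52) to 8079 bases (Mrps10). All 10 genes at 30 RPKM or more had exon lengths under 1500 bases, and 11 of the 12 genes under 5 RPKM had lengths over 3000 bases. The exception was Mrps34, with 2064 bases.

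**Figure D3:**
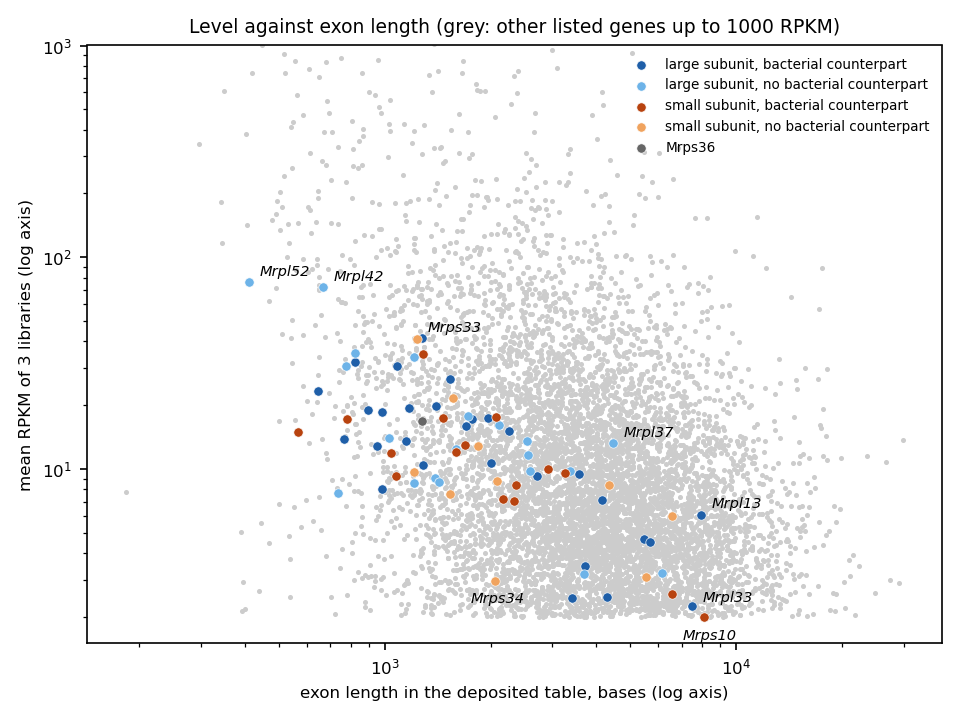
Mean RPKM over 3 inbred wild type libraries against the exon length in the deposited tables, both on log axes. Coloured points are the 76 mitochondrial ribosomal protein genes by role and grey points the other listed genes. The members run from short and high (Mrpl52, 412 bases) to long and low (Mrps10, 8079 bases).

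The deposited exon length was equal to the union of all annotated exons of the gene in GENCODE M21 for 38 of 76 members. For 10 members it was over 2 times the length of the principal transcript, and for 3 over 5 times. Mrps10 had an exon length of 8079 bases and a principal transcript of 1018 bases, so that its level per kilobase was 2.004 in RPKM and 15.9 on the principal transcript. Mrpl33 was at 2.26 RPKM and 35.3 on that length (7473 and 478 bases), and Mrpl13 at 6.08 RPKM and 39.5 (7936 and 1223 bases). Reads of all deposited exons were here divided by the shorter transcript. These values, and those of other genes whose exon length was the longer, can therefore be too high. The change also ran the other way in 17 genes whose exon length was under that of the principal transcript. The reads behind RPKM are those of the deposited exons, so any others on the longer transcript are missing. Values of these 17 genes on that transcript can therefore be too low. Mrps16 was at 14.9 RPKM and 3.28 on the principal transcript, Mrpl32 at 13.9 and 3.53, and Mrpl11 at 31.9 and 8.61. On the principal transcript the order ran from Mrpl47 (2.49) to Mrps21 (91.3), 3 of the 8 lowest and 6 of the 8 highest genes were the same as by RPKM, and the 2 orders had a rho of 0.71. Which transcripts the lens uses was not measured in the files, so the positions of these genes in the order depend on the length chosen.

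Between libraries the members varied by more than counting error. The median coefficient of variation (SD over mean) was 7.08%, where counting error alone would give a median of about 4.45% at these read numbers. Reads per member and library ran from 65 to 1002. Chi-square of the reads per degree of freedom, whose median with 3 libraries is 0.693 for counting error alone, had a median of 1.49, against 1.83 over 5408 listed genes of the same range of reads. It was over 3 in 22 of 76 members (28.9%) and in 33.9% of those genes, where counting error alone would give 4.98%. The highest library was over 1.5-fold the lowest in 2 of the 76 members, Mrps34 and Mrpl17.

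The genes of the highest coefficient of variation were Mrps34 (29.9%), Mrpl17 (21.9%), Mrpl22 (20.98%) and Mrps18c (18.5%). Mrps34 was at 2.73, 3.95 and 2.23 RPKM, from 94, 133 and 65 reads. Its normalized values were 68.6, 78.1 and 70.4, a span of 1.14-fold against 1.78-fold in RPKM, and it shared 55.6% of its 31-base words with Mapk8ip3. The part of reads from that gene in the spread was not tested. Mrpl17, a large subunit protein of bacterial descent, was at 8.44, 7.55 and 5.40 RPKM, from 585, 511 and 317 reads. Replicate 2 was high in RPKM for Mrps34, whereas replicate 3 was low in Mrpl17. Mrpl22, which lines the tunnel through which the new chain leaves, was at 10.02, 7.19 and 6.99 RPKM. Mrps18c, of the small subunit, was at 11.2, 8.61 and 7.95 RPKM. Mrpl22 shared 43.2% and Mrps18c 35.5% of their words with other genes, against 0.165% for Mrpl17. In both Mrpl22 and Mrps18c, replicate 1 was above the other libraries.

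That order was common. Replicate 1 was the highest library in 52 of 76 members (68.4%), replicate 2 in 15 and replicate 3 in 9, and replicate 3 was the lowest in 42. Over all listed genes replicate 1 was the highest in 29.6%. Over the 1029 listed genes no longer than the median member it was highest in 63.0%, over oxidative phosphorylation genes in 75.9% and over cytosolic ribosomal protein genes in 94.7%. The 12 translation factors differed, with 2 highest in replicate 1. The shift was small, with a median log2 ratio of replicate 1 to the mean of the 3 libraries of 0.07 in members, 0.07 in the short genes and −0.03 in all listed genes. Over all listed genes exon length and the log2 ratio of replicate 1 to the other libraries had Spearman's rho of −0.49, and over members −0.19. Replicates 1 and 3 also differed in the crystallin share of reads. When levels were set on the reads of listed genes other than crystallins, replicate 1 was highest in 59 members (77.6%) and 38.8% of all listed genes. The part of gene length or crystallin share in this order was not tested.

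**Figure D4:**
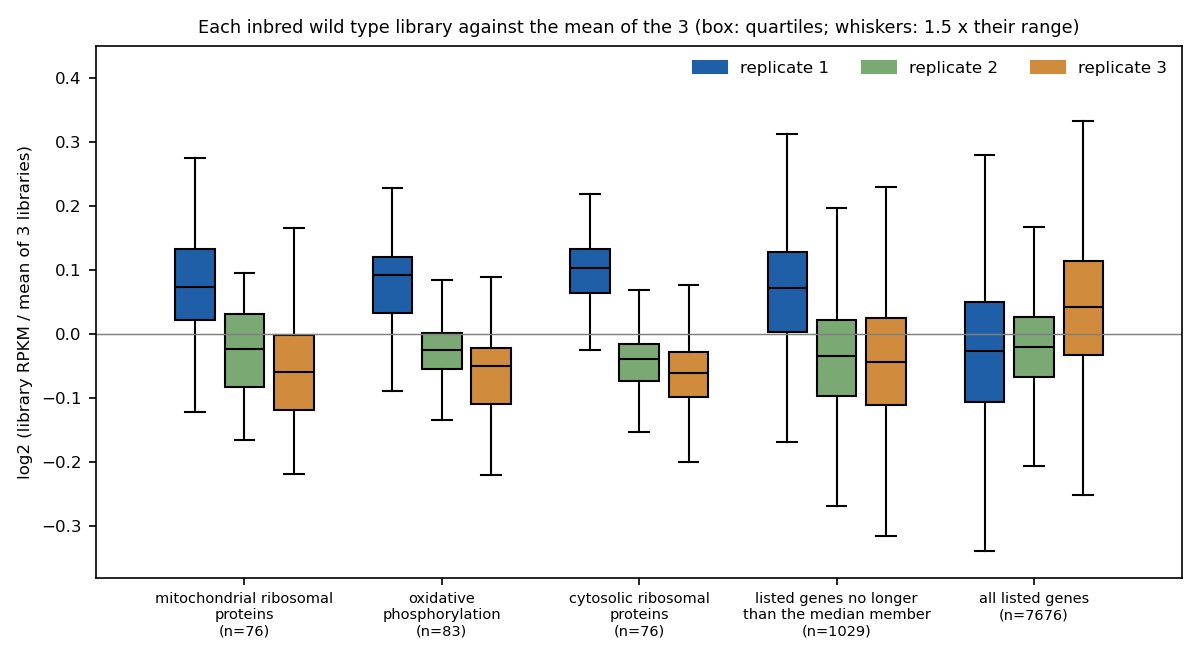
Log2 ratio of each inbred wild type library to the mean of the 3, for the 76 mitochondrial ribosomal protein genes, at left, and for 4 comparison sets. Boxes are quartiles over genes with the median, and whiskers reach 1.5 times their range without outlying points. The median of replicate 1 lies above 0 in members, in both other gene families and in the short listed genes, and just below 0 in all listed genes.

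Some members share sequence with other genes, and in some the deposited RPKM and normalized values differed from each other. The authors' normalized expression value, divided by the reads behind the RPKM, was within 0.9 to 1.1 of its typical value over listed genes in 43 of 76 members. In 7 members (9.21%) it was under 0.5 of the typical value in all 3 libraries, as it was in 518 of 7676 listed genes (6.75%). Mrpl53, a large subunit gene, was the extreme. Its RPKM was 7.42, 7.09 and 8.66, from 91, 85 and 90 reads, while its normalized value was listed at 0 in all 3 libraries. All of its 31-base words (100%) also occur in Gm42688, another annotated gene, which overlaps Mrpl53 on the genome. Exons of other genes on the same strand covered 695 bases of Mrpl53, the length of its principal transcript.

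The others were Mrpl23, with a normalized value per read at 0.0448 of the typical value, Mrps33 at 0.156, Mrpl17 at 0.218, Mrps36 at 0.235, Mrpl2 at 0.429 and Mrps18b at 0.468. Mrpl23 shared 77.0% of its words with the processed pseudogene Mrpl23-ps1. Mrps33 shared 24.1% with the pseudogene Gm5776, Mrps36 41.6% with other genes, and Mrps18b 64.3%, most of it with the antisense transcript Gm16279. Mrpl17 shared 0.165% and Mrpl2 0%, so shared words did not go with the low value in these. The 19 members under 0.8 of the typical value shared a median of 28.6% of their words, and the other 57 a median of 4.87%. Over the 76 genes, 6 shared over 50% of their words and 22 shared none, and 32 overlapped exons of another gene. Whether the counting used strand is not given in the sources used here, so reads of a member and of an overlapping or near-identical gene cannot be told apart in RPKM. The levels of the 6 members that shared over 50% of their words are therefore uncertain. These were Mrpl53, Mrpl23, Mrps25 (74.6%, most of it with Nr2c2 on the opposite strand), Mrps18b, Mrps34 (55.6%), which was among the lowest 8, and Mrpl27 (53.99%). Mrps33, among the highest 8 by RPKM, Mrps36, Mrpl17 and Mrpl2 shared less, and their levels are uncertain too for their low normalized values.

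**Figure D5:**
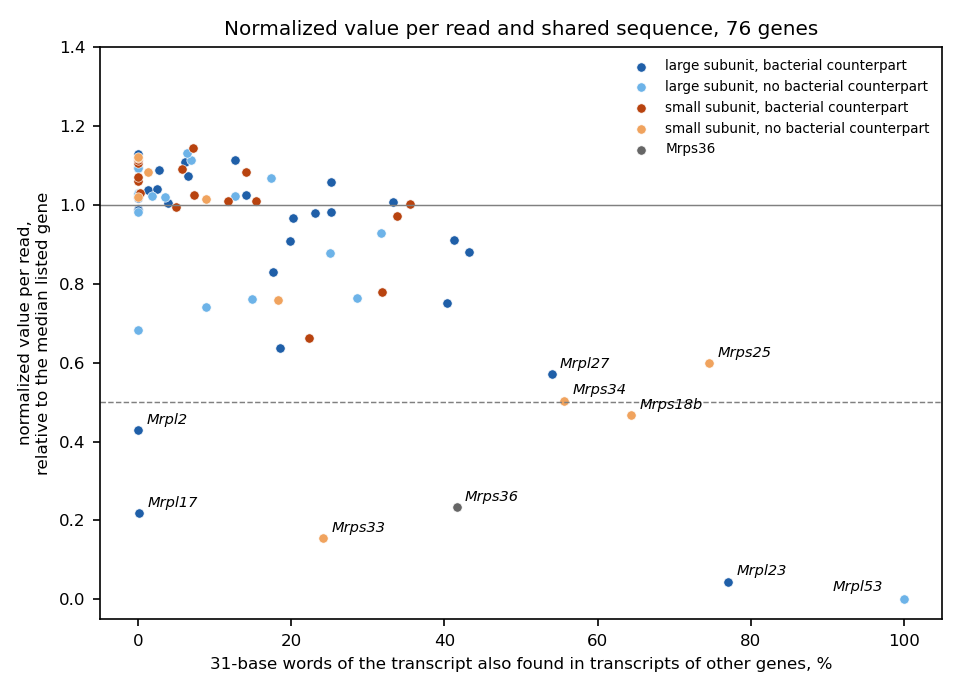
The authors' normalized expression value per read, relative to the median listed gene (mean of 3 inbred wild type libraries), against the percentage of a gene's 31-base words that also occur in transcripts of other genes, for the 76 mitochondrial ribosomal protein genes. The solid line marks the typical value and the dashed line 0.5 of it. Mrpl53 lies at 0 with 100% of its words shared, whereas Mrpl2 and Mrpl17 lie under the dashed line with almost none shared.

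The members lay on 17 chromosomes in the annotation, with the largest counts on chromosomes 11 (10 genes), 17 (8) and 6 (7). These counts were not set beside those of all genes. A neighbour that starts on the opposite strand within 1000 bases, pointing away, was found for 17 of 76 members (22.4%), against 11.4% of listed genes and 6.77% of protein-coding genes. The distance between starts was 26 to 935 bases with a median of 83 bases. Mrpl54 lay 26 bases from Apba3, and Mrps18c lay 29 bases from Helq, and Mrps34 also 29 bases from Eme2. Of the 17 neighbours 10 were in the inbred list, and 5 of these had the higher level of the pair.

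Of the 10 listed pairs 5 were under 2-fold apart, and the pairs ran from 1.09-fold to 32.6-fold apart. Mrpl49 was at 17.9 ± 0.507 RPKM, and Fau, which encodes a protein of the cytosolic small ribosomal subunit and starts 59 bases away, was at 582 ± 44.97 RPKM. Mrpl32 was at 13.9 ± 2.42 RPKM and Psma2, a proteasome subunit gene 75 bases away, at 24.9 ± 1.93 RPKM. Mrps12 was at 11.9 ± 0.631 RPKM and Sars2, the mitochondrial seryl transfer RNA synthetase gene 172 bases away, at 3.61 ± 0.214 RPKM. In the last of these pairs both genes serve mitochondrial translation. Mrps27, of the small subunit, was at 12.8 ± 0.235 RPKM, and its neighbour Ptcd2, 81 bases away, was at 13.9 ± 1.396 RPKM, a difference within the spread of Ptcd2. The other 3 close pairs were Mrpl40 with Hira (8.60 and 6.85 RPKM), Mrpl51 with Ncapd2 (9.73 and 13.9 RPKM) and Mrps18b with Ppp1r10 (8.77 and 13.4 RPKM).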

How the data were processed

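Per the labels' protocols, each library came from 30 pooled lenses through an Illumina TruSeq kit. Of the software, the submitters' processing notes name CASAVA 1.8.2. The aligner, strand setting, annotation and build were not given in the sources used here. Each table had, per the file headers, the authors' RPKM and their normalized expression values. The deposited normalized values are a score whose unit and method are not described, in multiples of 1/8 in the inbred tables. Those tables also had exon lengths. The inbred tables had 7700 rows, of which 24 with a repeated symbol, none of a member, were left out.

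RPKM times exon length fell on whole multiples of 1 step per library (100% of low values, tolerance 0.1 reads), which gave depth and reads per gene. Reads came out whole for 99.5% to 99.6% of genes. The step was tested on simulated data. Counting intervals at 95% confidence were 3.72% to 12.2% of a member's level on either side and cover counting error only. RPKM are not counts, and with no member listed in 2 groups, the planned limma comparisons had nothing to fit, so no p-value is given.

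Symbols were matched to GENCODE M21 (GRCm38), used for names, transcript lengths, neighbours and 31-base words shared with other genes on either strand. The principal transcript was the one the annotation ranks first, or the longest of these. Promoters were those of RefSeq (GRCm38.p6). The members, lists and tests were chosen with earlier results of these data known. Named were the 8 highest and 8 lowest members, the 4 of highest coefficient of variation, the ends of each role group, 8 members of known function or disease, and from each other list the 2 highest and the lowest genes. Gabpa and Gabpb1, genes of low normalized value, those whose length changed their place, those of the stalk, tunnel exit, decoding centre and head, and head-to-head pairs were named after their values were seen. Alternatives were the normalized values, reads without crystallins, repeated symbols summed, other symbols added, members sharing over 50% of words left out and each library left out. Levels on the principal transcript were added after the data were seen. Python 3.11.15, numpy 2.4.6, pandas 2.3.3, scipy 1.17.1 and matplotlib 3.10.9 were used.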

Additional observations from a re-analysis of the deposited data

How the results depend on the processing

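The median of the 76 members was above that of all listed genes in RPKM and on the principal transcript. Setting levels on the reads without crystallins multiplies every gene of a library by the same factor, so it could not change that order. With the authors' normalized values per base, scaled to the RPKM median, the members' median was 11.1 and the small to large subunit ratio 0.360. The members' share of the summed normalized values, which is not a share of reads, was 0.286%. In the values per base the medians of the 4 role groups (large with and without, then small with and without a bacterial counterpart) were 11.2, 13.96, 11.8 and 7.81. Set on the reads without crystallins the median was 21.8, against 13.99 for all listed genes, with a share of 0.336% of those reads and role medians of 24.6, 23.5, 20.05 and 15.7. On the principal transcript the median was 15.3, against 9.77 for all listed genes, the ratio 0.442 and the role medians 17.9, 15.1, 14.97 and 9.28. Adding 7 genes of other symbols gave a share of reads of 0.240%, a ratio of 0.490 and medians of 11.8 and 9.20 for the groups with no bacterial counterpart, large and small. Leaving out members that share over 50% of their words gave 0.197% and 9.62 for the last group. The order of the other 3 role groups changed with the normalized values. The large subunit group with a bacterial counterpart was also below the one without such a counterpart when replicate 1 was left out (12.4 against 12.8) and when the members that share words were left out (12.8 against 13.3). The cause was not tested. The other 37 values moved by less than the spread (SD) between libraries, but many of these could not have moved further. Leaving out 1 of 3 libraries always shifts their mean by less than their SD. No member has a repeated symbol, and some settings leave a ratio or a role group as it was. Their number is therefore no measure of stability. Without 1 library in turn the median was 11.7 to 11.95 RPKM, the share 0.205% to 0.215%, the ratio 0.382 to 0.387, and the role medians 12.4 to 13.98, 12.6 to 13.1, 10.5 to 11.1 and 8.43 to 8.79. No paired analysis was possible because no member is listed in more than 1 group, and for the same reason none of the settings planned for cKO against mixed wild type, mixed against inbred wild type or cKO against inbred wild type was run. Depth limits the members of under 100 reads in a library, Mrpl22, Mrpl53 and Mrps34, most.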
